A study of Mus musculus with 3 samples.

Results

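The collagens described here are all genes in the tables whose symbol is Col, a number, a and a number, other than the type IV chains and Col18a1. The rule found 35 genes of 19050 in the tables, and 7 of the 42 genes with such symbols were left out by it. Of the 35 genes, 26 passed the filter on low counts (filterByExpr, which asks for a minimum count in several sums) and 9 did not.

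The study sequenced single mammary epithelial cells in 3 droplet libraries of 1 group, which the labels call Facs1, Facs2 and Facs3 and which are libraries 1, 2 and 3 here. The mice were 10 weeks old FVB/NJ females, and the labels state that number 4 mammary glands from 4 of them were combined. The cells were freed with collagenase and trypsin, stained for CD49f, EpCAM, CD31, CD45, Ter119 and the dead-cell dye SytoxBlue, and sorted as live epithelial cells. No treatment, transgene or other genotype is named, and the sources used here do not say if the libraries share 1 pool of mice, so p-values cover only library-to-library spread, possibly technical.

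Collagens are secreted or membrane-bound proteins built of 3 chains wound into a helix, which needs a glycine at every turn of the repeat. Fibril-forming types give tissue its tensile strength, fibril-associated types sit on the surface of fibrils, and network-forming, beaded and anchoring types link fibrils to basement membranes and cells. In the mammary gland the basal, myoepithelial layer rests directly on the basement membrane, fibroblasts of the stroma make most of the interstitial collagen, and 2 luminal cell types line the duct: secretory progenitors and hormone-responsive cells.

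Each cell was placed in a class by summed UMIs (unique molecular identifiers, 1 for each captured transcript molecule). The sums were Krt5, Krt14 and Acta2 for basal cells, Csn3, Elf5, Kit and Aldh1a3 for luminal progenitor cells, and Prlr, Areg, Pgr and Esr1 for hormone-responsive cells. The top sum had to reach 5 UMIs and 3 times each of the others. Before this, 256 of 24352 cells with at least 3 markers of fibroblasts, pericytes, endothelial, immune, Schwann or fat cells were set aside, 44 of which would have met the class rule. This left 1487, 4323 and 3919 basal, 3098, 1637 and 3209 luminal progenitor and 344, 978 and 1206 hormone-responsive cells in libraries 1, 2 and 3, and 3895 cells without a class. Median depth was 1719 to 2171 UMIs per basal cell, 2829 to 3779 per luminal progenitor cell and 3332 to 3826 per hormone-responsive cell. Summed UMIs per class and library ran from 1248867 to 11772635. No collagen was used to choose the classes, and the 11 genes that were used were not tested. Libraries shared 77 to 146 cell barcodes by pair, and counts of a class differed between libraries by more than sampling noise (chi-square per degree of freedom 5.29 to 91.0).

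Collagen transcripts were most abundant in basal cells, and the leading genes of luminal progenitor cells were in part those of basal cells. UMIs of the 35 genes made up 0.275% ± 0.0522 of all UMIs in basal cells, 0.0408% ± 0.00864 in luminal progenitor cells and 0.0640% ± 0.0180 in hormone-responsive cells (mean ± SD, n = 3 libraries). The basal values were 0.218%, 0.286% and 0.321%, all above the highest luminal value of 0.0803%. A collagen UMI was present in 97.7% ± 1.59 of basal, 68.3% ± 11.6 of luminal progenitor and 76.6% ± 8.63 of hormone-responsive cells, and in 98.7% ± 1.44, 52.4% ± 9.24 and 62.1% ± 12.2 when cells were thinned to 2000 UMIs (5055, 1453 and 423 shallower cells left out).

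**Figure D1:**
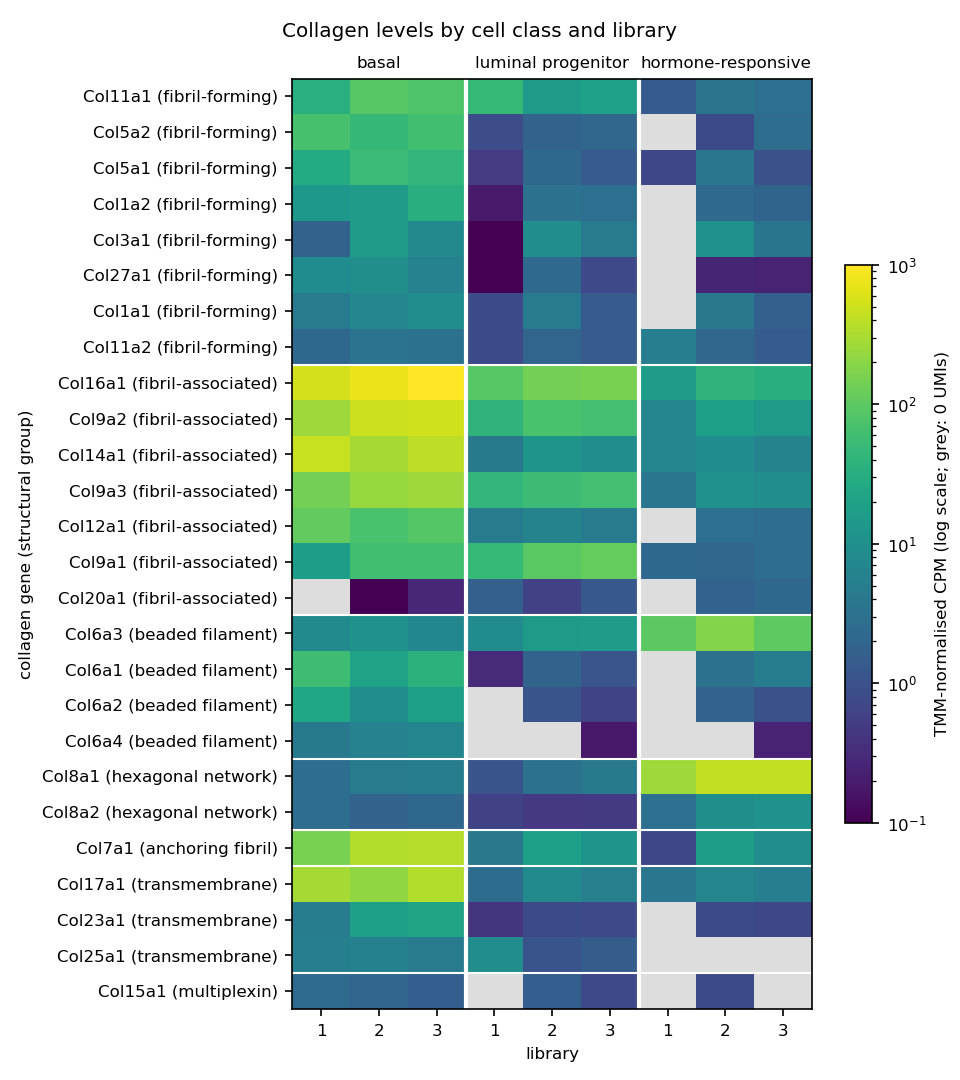
Level of the 26 collagens that passed the filter on low counts (rows, grouped by structure) in each library of each cell class (columns). Colour is TMM-normalised CPM on a log scale and grey marks 0 UMIs. Col16a1, Col9a2, Col14a1, Col7a1 and Col17a1 are brightest in basal cells, and Col8a1 and Col6a3 in hormone-responsive cells.

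The make-up differed by class. In basal cells, Col16a1 gave 26.8% ± 2.66 of collagen UMIs, Col9a2 14.7% ± 2.79, Col14a1 14.1% ± 5.39, Col17a1 10.3% ± 2.54, Col7a1 9.96% ± 2.76 and Col9a3 7.66% ± 1.17. In luminal progenitor cells, Col16a1 (30.7% ± 1.22), Col9a1 (19.4% ± 4.03), Col9a2 (13.7% ± 1.22) and Col9a3 (12.8% ± 1.06) led. In hormone-responsive cells, Col8a1 alone gave 61.8% ± 4.93 and Col6a3 21.3% ± 4.85. These shares are of counted molecules and are not scaled by transcript length, since each UMI marks 1 molecule read at its 3' end.

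Levels were compared between classes with edgeR's quasi-likelihood test on the summed counts, with the library as a block, over 12649 genes. A gene counted as called when its Benjamini-Hochberg adjusted p over all of them was under 0.05 and its log2 fold change was 1 or more in size. Of the 26 collagens, 19 were higher in basal than in luminal progenitor cells, 1 was lower and 6 were not called, where 17.1% of all genes were called higher in basal and 14.1% higher in luminal progenitor cells. Against hormone-responsive cells, 19 were higher in basal cells, 4 lower and 3 not called, beside 20.6% and 15.2% of all genes. The median log2 fold change of the 26 was 2.67 and 4.55, and that of all genes -0.08 and 0. Between the luminal classes, 6 were higher in luminal progenitor cells, 3 higher in hormone-responsive cells and 17 not called, beside 14.1% and 10.4% of all genes, with a median of 0.13 (0.05 over all genes). In all, 17 collagens were higher in basal than in both luminal classes. Some of them, such as Col6a4 and Col23a1, had so few luminal UMIs that they passed the filter only through their basal sums. Such genes could hardly be called in the other direction, so the counts depend in part on the filter. The 3 comparisons share their sums, so their counts are not independent of each other.

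**Figure D2:**
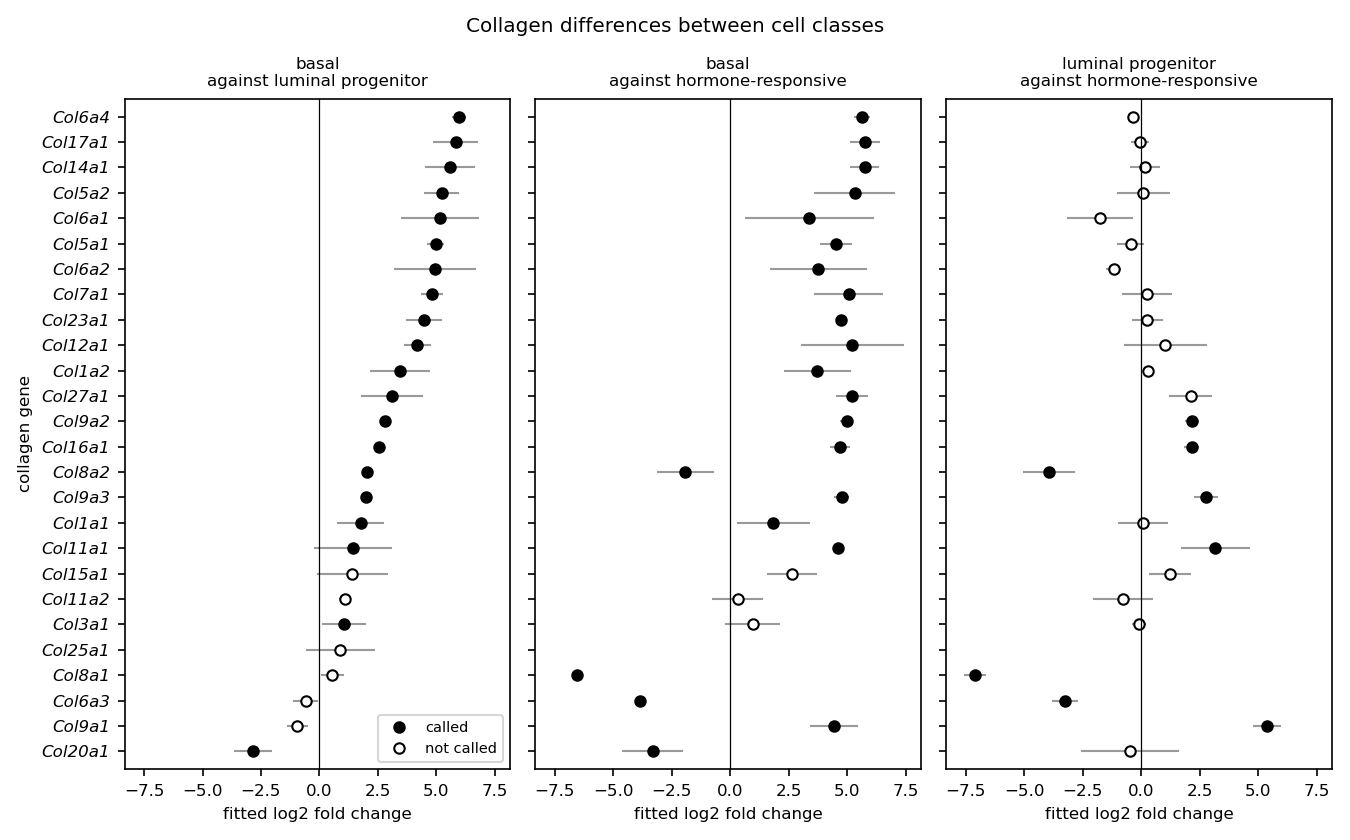
Fitted log2 fold change of the 26 collagens in the 3 comparisons of cell classes; filled points were called, open points were not, and bars are the SD over 3 log2 ratios, each within a library. Col25a1 is not drawn against hormone-responsive cells, where it had 0 UMIs. Most points lie to the right of 0 in both comparisons of basal cells, and Col8a1, Col6a3, Col8a2 and Col20a1 lie to the left against hormone-responsive cells.

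The sequences before the start sites of 4 genes that set the classes apart are given first: the leading basal collagen Col16a1, the hemidesmosome collagen Col17a1, and the 2 collagens that lead in hormone-responsive cells, Col8a1 and Col6a3. Each is the 250 bases before the start from RefSeq, build GRCm38.p6, written 5′ to 3′ on the gene's strand. Col16a1 is read from chr4:130047590-130047839 on the plus strand, Col17a1 from chr19:47692043-47692292, Col8a1 from chr16:57754738-57754987 and Col6a3 from chr1:90843972-90844221, all 3 on the minus strand. Capitals mark matches on either strand to 5 short motifs. The GC box was searched as GGGCGG, and the CCAAT box by the letters of its name. The TATA box was searched as TATAAA. The motif of the AP-1 factors was searched as TGANTCA, where N is any base. The motif of the TEAD factors was searched as CATTCC.
Col16a1: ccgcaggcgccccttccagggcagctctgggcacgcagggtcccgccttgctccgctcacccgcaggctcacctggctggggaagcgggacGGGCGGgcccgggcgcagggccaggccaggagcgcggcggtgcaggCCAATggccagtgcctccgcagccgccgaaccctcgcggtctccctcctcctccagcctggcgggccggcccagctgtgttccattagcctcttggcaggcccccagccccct
Col17a1: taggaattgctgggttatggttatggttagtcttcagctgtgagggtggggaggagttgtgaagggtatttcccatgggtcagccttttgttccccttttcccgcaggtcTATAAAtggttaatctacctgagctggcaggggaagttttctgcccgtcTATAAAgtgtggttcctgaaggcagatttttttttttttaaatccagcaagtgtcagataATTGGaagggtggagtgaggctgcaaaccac
Col8a1: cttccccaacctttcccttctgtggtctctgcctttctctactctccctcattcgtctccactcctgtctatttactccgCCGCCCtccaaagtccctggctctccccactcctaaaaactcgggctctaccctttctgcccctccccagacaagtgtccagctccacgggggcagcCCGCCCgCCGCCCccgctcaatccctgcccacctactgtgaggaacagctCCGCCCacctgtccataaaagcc
Col6a3: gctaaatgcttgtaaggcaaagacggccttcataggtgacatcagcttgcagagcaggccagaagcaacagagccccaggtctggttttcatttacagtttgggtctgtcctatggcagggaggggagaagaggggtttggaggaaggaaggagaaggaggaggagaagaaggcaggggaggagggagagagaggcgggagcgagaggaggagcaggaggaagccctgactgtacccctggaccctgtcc
The Col16a1 window holds 1 GC box and 1 CCAAT box. The Col17a1 window holds 2 TATA boxes on the gene's strand and 1 CCAAT box on the other, the Col8a1 window 4 GC boxes on the other strand, and the Col6a3 window no match to the 5 motifs. Over all 32851 windows of this length in the table, 32.7% held a GC box, 33.8% a CCAAT box, 12.4% a TATA box, 6.75% an AP-1 and 12.6% a TEAD match. The table had 27 of the 35 collagens, of which 17 had a GC box, 9 a CCAAT box, 4 a TATA box, 1 an AP-1 and 3 a TEAD match. Of the 17 genes higher in basal than in both luminal classes, 12 were in the table and 10 had a GC box, 6 a CCAAT box, 1 a TATA box, 1 an AP-1 and 1 a TEAD match. No matches in the 4 windows overlapped. A match is a run of letters and was not tested as a binding site.

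Of the collagens described here, the fibril-associated Col16a1 had the highest level in basal and in luminal progenitor cells. Col16a1 (chromosome 4, 130047840 to 130099283, plus strand), which binds to fibrils and to integrins near cell surfaces, stood at 539.7, 765.5 and 972.6 CPM in basal cells of libraries 1, 2 and 3, at 91.5, 145 and 158 CPM in luminal progenitor cells and at 16.1, 40.0 and 32.6 CPM in hormone-responsive cells (CPM: counts per 1000000, TMM-normalised). The 3 classes did not overlap, and the fitted log2 fold changes were 2.53 ± 0.12 for basal against luminal progenitor (edgeR adjusted p = 2.3e-06), 4.69 ± 0.42 for basal against hormone-responsive (adjusted p = 2.91e-07) and 2.16 ± 0.32 for luminal progenitor against hormone-responsive cells (adjusted p = 1.44e-05). Errors of fold changes are the SD over 3 log2 ratios, each within a library, computed with a prior count of 2, which narrows them where counts are near 0. Col16a1 UMIs were present in 72.5% ± 8.71 of basal, 34.1% ± 8.64 of luminal progenitor and 10.3% ± 3.96 of hormone-responsive cells.

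Type IX collagen, a fibril-associated trimer of the products of Col9a1, Col9a2 and Col9a3 known best from cartilage, differed in balance between basal and luminal progenitor cells. Col9a2 stood at 264, 483 and 508 CPM in basal cells, at 40.2, 72.0 and 64.8 CPM in luminal progenitor and at 6.59, 17.9 and 14.8 CPM in hormone-responsive cells. Col9a3 followed the same order with 144, 245 and 261 CPM, 42.6, 55.3 and 64.0 CPM, and 3.66, 10.0 and 9.24 CPM. Both were called higher in basal than in luminal progenitor cells (2.81 ± 0.14, edgeR adjusted p = 5.65e-07, and 1.98 ± 0.20, adjusted p = 4.77e-06). Col9a1 (chromosome 1, 24177610 to 24252684, plus strand) ran the other way, with 16.6, 62.4 and 60.7 CPM in basal and 47.1, 94.7 and 115 CPM in luminal progenitor cells. In each library the luminal progenitor level was the higher one, at 283%, 152% and 189% of the basal level, although the groups overlap across libraries. The fitted log2 fold change of -0.95 ± 0.45 fell just short of the fold required (adjusted p = 0.00214). Without library 2 it was -1.17 and with a stricter class rule -1.14, both of which pass. Hormone-responsive cells had only 3, 8 and 11 Col9a1 UMIs (2.20, 2.11 and 2.68 CPM), and Col9a1 was higher in luminal progenitor than in hormone-responsive cells by 5.38 ± 0.60 (adjusted p = 1.81e-06). Tcfl5 overlaps Col9a3 and 4930562D21Rik overlaps Col12a1 on the other strand, and the sources used here do not say whether counting used strand.

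Col14a1 and Col12a1, which decorate the surface of type I fibrils, were far higher in basal than in luminal cells. Col14a1 stood at 457, 287 and 395 CPM in basal, 4.14, 11.7 and 9.02 CPM in luminal progenitor and 6.59, 8.95 and 6.08 CPM in hormone-responsive cells (5.58 ± 1.06 and 5.74 ± 0.60 for basal against each; adjusted p = 3.29e-06 and 4.47e-06). Its UMIs were present in 47.8% ± 6.58 of basal cells. Col12a1 stood at 109.6, 71.0 and 87.3 CPM in basal cells and at 6.23 CPM or lower in every luminal sum (4.19 ± 0.58 and 5.22 ± 2.19). Library 1 was the highest for both genes in basal cells, unlike for Col16a1 and the type IX chains. Col20a1, another fibril-associated chain, was rare, with 3 basal, 34 luminal progenitor and 16 hormone-responsive UMIs in all. It was the 1 collagen called lower in basal than in luminal progenitor cells (-2.84 ± 0.80, adjusted p = 0.0242), and lower than in hormone-responsive cells (-3.32 ± 1.30, adjusted p = 0.0152). It did not pass the filter on low counts without library 2, without library 3 or with a stricter class rule.

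**Figure D3:**
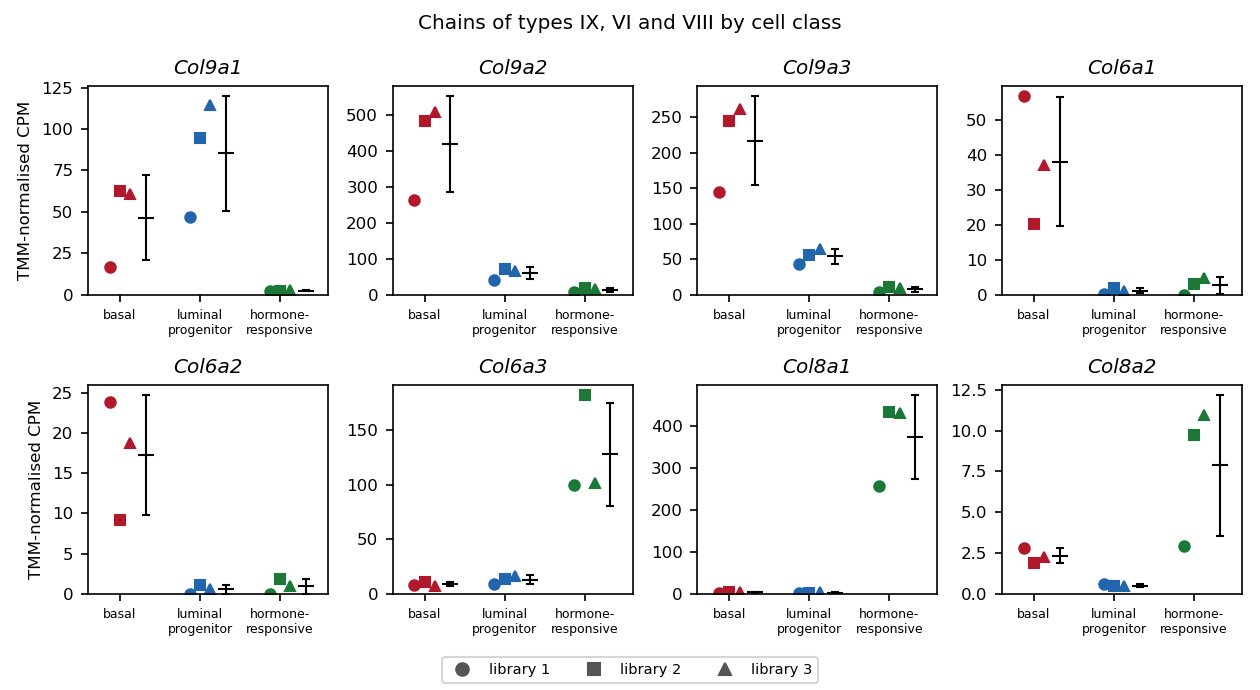
Levels of the chains of types IX, VI and VIII in each cell class (TMM-normalised CPM, linear axes from 0); symbols are libraries and the bar beside them is mean ± SD (n = 3). Col9a1 is highest in luminal progenitor cells while Col9a2 and Col9a3 are highest in basal cells, and Col6a3 is highest in hormone-responsive cells while Col6a1 and Col6a2 are highest in basal cells.

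Type VI collagen forms beaded filaments from the chains of Col6a1 and Col6a2 with a longer chain, most often that of Col6a3. The chains stood apart by class. Col6a1 was at 56.8, 20.05 and 37.2 CPM and Col6a2 at 23.9, 9.17 and 18.7 CPM in basal cells, and neither passed 4.87 CPM in any luminal sum. Basal cells were above luminal progenitor cells for Col6a1 by 5.15 ± 1.67 (adjusted p = 0.000109) and for Col6a2 by 4.94 ± 1.76 (adjusted p = 0.000333). Col6a3 (chromosome 1, 90765923 to 90843971, minus strand) was at 7.85, 11.3 and 7.46 CPM in basal, 8.57, 14.0 and 16.5 CPM in luminal progenitor and 99.6, 182 and 102 CPM in hormone-responsive cells. The fitted log2 fold change was -3.85 ± 0.19 for basal against hormone-responsive cells (adjusted p = 2.3e-06) and -3.26 ± 0.57 for luminal progenitor against hormone-responsive cells (adjusted p = 6.62e-06). Col6a3 UMIs were present in 25.9%, 41.4% and 24.0% of hormone-responsive cells of libraries 1, 2 and 3, and in 1.75% ± 0.677 of basal and 4.06% ± 1.30 of luminal progenitor cells. Hormone-responsive cells of library 1 had 136 UMIs of Col6a3 and 0 of Col6a1 and Col6a2; those of libraries 2 and 3 had 692 and 419 against 12 and 20 of Col6a1 and 7 and 4 of Col6a2. Col6a4, an alternative long chain, was a low basal transcript (4.08, 6.02 and 6.76 CPM) with 2 luminal progenitor and 1 hormone-responsive UMIs.

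Type VIII collagen, a short-chain network former known from vessel walls and the cornea, was the leading collagen of hormone-responsive cells. Col8a1 (chromosome 16, 57624258 to 57754737, minus strand) stood at 258, 432 and 429 CPM in hormone-responsive cells, at 2.83, 4.30 and 4.93 CPM in basal and at 1.08, 3.12 and 4.14 CPM in luminal progenitor cells. Hormone-responsive cells did not overlap with the other classes, which overlapped with each other. The fitted log2 fold changes were -6.57 ± 0.11 for basal and -7.11 ± 0.47 for luminal progenitor against hormone-responsive cells (edgeR adjusted p = 1.63e-07 and 1.59e-07). Col8a1 UMIs were present in 45.1%, 58.1% and 54.7% of hormone-responsive cells, with up to 23 UMIs in a cell, and in 0.816% ± 0.256 of basal and 0.962% ± 0.527 of luminal progenitor cells. Thinned to 2000 UMIs, the shares were 41.0% ± 8.06, 0.746% ± 0.221 and 0.550% ± 0.368. Its partner Col8a2 was far lower, at 2.93, 9.74 and 10.9 CPM in hormone-responsive, 2.83, 1.91 and 2.25 CPM in basal and at most 0.591 CPM in luminal progenitor cells. In library 1 its hormone-responsive and basal levels lay side by side (4 and 9 UMIs), and the call of hormone-responsive over basal cells (-1.92 ± 1.22, adjusted p = 0.00365) was lost when library 2 (adjusted p = 0.0877) or library 3 (adjusted p = 0.0905) was left out, as was its call of basal over luminal progenitor cells (2.04 ± 0.15, adjusted p = 0.00992; 0.0529 and 0.0841).

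Collagens that tie basal cells to their matrix were high in basal cells. Col17a1 (chromosome 19, 47646344 to 47692094, minus strand), the transmembrane collagen of hemidesmosomes, stood at 289, 217 and 340 CPM in basal cells, at 2.56, 7.79 and 5.45 CPM in luminal progenitor cells and at 3.66, 6.58 and 5.11 CPM in hormone-responsive cells (5.82 ± 0.96 and 5.77 ± 0.64; adjusted p = 1.56e-06 and 2.65e-06). Col7a1 (chromosome 9, 108953586 to 108984875, plus strand), the chain of the anchoring fibrils that fasten the basement membrane to the stroma, stood at 156, 345 and 354 CPM in basal cells, and at most at 18.1 CPM in the luminal sums (4.81 ± 0.48 and 5.06 ± 1.48). Library 1 was the lowest for Col7a1. The transmembrane Col23a1 was a lesser basal transcript with 5.02, 18.4 and 21.8 CPM and 17 luminal progenitor and 6 hormone-responsive UMIs in all.

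Col25a1, a transmembrane collagen known from neurons and muscle innervation, stood at 5.34, 5.82 and 4.505 CPM in basal and 9.07, 1.09 and 1.504 CPM in luminal progenitor cells. No Col25a1 UMI was seen in hormone-responsive cells, which at a floor of 3 counts over the 3 libraries (0.323 CPM) makes the basal level at least 16.1-fold higher. No such bound is given for luminal progenitor cells, since most of their UMIs came from 1 library. The call of luminal progenitor over hormone-responsive cells (adjusted p = 0.0246) was lost without library 3 (adjusted p = 0.0651). In luminal progenitor cells, 92 of its 115 UMIs came from library 1, in 90 different cells. Col11a1, a minor fibril-forming chain that nucleates fibrils, showed the same library: 47.8 CPM in luminal progenitor cells of library 1 against 13.9 and 19.7 CPM in libraries 2 and 3, while basal cells had 34.5, 92.2 and 79.1 CPM. The luminal progenitor level was thus 138% of the basal level in library 1 and 15.0% and 24.9% in the others. The call of Col11a1 as higher in basal than in luminal progenitor cells (1.43 ± 1.66, adjusted p = 0.0383) was lost when library 2 (0.77, adjusted p = 0.288) or library 3 (1.07, adjusted p = 0.261) was left out and with a stricter class rule (1.35, adjusted p = 0.0558). Without library 1, Col25a1 was higher in basal than in luminal progenitor cells by 1.99 (adjusted p = 0.00124), which it was not with all 3 libraries (0.90 ± 1.49, adjusted p = 0.228).

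Among the other fibril-forming chains, Col5a1 and Col5a2 of type V, which regulates fibril diameter, were higher in basal cells. Col5a2 stood at 67.8, 46.9 and 61.4 CPM and Col5a1 at 27.9, 53.5 and 42.4 CPM in basal cells, and both at 3.69 CPM or lower in every luminal sum (5.22 ± 0.74 and 4.98 ± 0.36 against luminal progenitor cells; adjusted p = 3.44e-06 and 1.33e-06). Col27a1 stood at 8.79, 9.64 and 5.91 CPM in basal cells and was also called (3.10 ± 1.33). Col11a2 and the multiplexin Col15a1 were at 5.12 CPM or lower in every sum and not called in any comparison; Col15a1 passed as higher in basal than in hormone-responsive cells with DESeq2 (adjusted p = 0.0335), without the filter (0.0372) and without library 1 (0.0399).

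The chains of types I and III, the bulk of interstitial collagen, were low in all 3 classes. Col1a1 stood at 4.39, 7.07 and 9.15 CPM in basal, 0.788, 4.67 and 1.41 CPM in luminal progenitor and 0, 3.95 and 1.70 CPM in hormone-responsive cells. Col3a1 stood at 1.88, 16.0 and 7.60 CPM, 0.0986, 9.03 and 4.32 CPM, and 0, 10.3 and 3.65 CPM, with classes that overlap. Col1a2 was higher in basal cells, at 13.8, 16.0 and 32.5 CPM against 0.197, 3.12 and 2.91 CPM in luminal progenitor cells and 0, 2.37 and 1.95 CPM in hormone-responsive cells (3.45 ± 1.27 and 3.72 ± 1.45; adjusted p = 0.000238 and 0.000513). The calls of Col1a1 (1.77 ± 1.00, adjusted p = 0.0114) and Col3a1 (1.03 ± 0.94, adjusted p = 0.0398) against luminal progenitor cells were lost without the replicate block (adjusted p = 0.0645 and 0.428). That of Col1a1 was also lost without library 3 (adjusted p = 0.149), as was its call against hormone-responsive cells (1.83 ± 1.56; adjusted p = 0.0199 with all libraries, 0.153 without library 3, and 0.0936 without the block). The call of Col3a1 against luminal progenitor cells was lost when any 1 library was left out. It was also lost without doublet removal (edgeR adjusted p = 0.0584) and with a stricter class rule (0.127). Against hormone-responsive cells Col3a1 was not called (0.95 ± 1.17, edgeR adjusted p = 0.0753). There it passed with DESeq2 (adjusted p = 0.0257), without the filter (0.0267) and with non-epithelial cells kept (1.64, 0.0254).

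Cells with fibroblast markers show where these chains were abundant. There were 3, 75 and 83 cells with at least 3 of 8 markers (Dcn, Lum, Pdgfra, Dpt, Clec3b, Pi16, Mfap5 and Serpinf1), 161 in all, and they were set aside from the classes. They held 4708 UMIs of Col3a1, 2996 of Col1a1 and 2896 of Col1a2, or 13200, 8401 and 8121 CPM scaled by totals, and also 1315 of Col6a1, 1010 of Col6a2, 888.9 of Col5a2 and 569 of Col15a1. In the 3 classes together, Col3a1 had 387 UMIs. The ratio of Col1a2 to Col3a1 UMIs was 0.598 and 0.649 in these cells of libraries 2 and 3, and 0.345 and 0.674 in luminal progenitor and 0.231 and 0.533 in hormone-responsive cells of the same libraries. In basal cells it was 1.0 and 4.28, and 7.33 in library 1 (44 and 6 UMIs), where fibroblast-marker cells held 4 Col1a2 UMIs in all. The 8 markers summed to 133 to 319 CPM in basal, 17.0 to 25.4 CPM in luminal progenitor and 143 to 176 CPM in hormone-responsive cells, with none of the 8 at 0 over the 3 libraries together, although Lum and Dpt had 0 UMIs in every class of library 1 and Dpt 0 in hormone-responsive cells of library 2. Dcn itself made up most of this in basal and hormone-responsive cells; without it the sums were 54.6 to 77.0, 8.57 to 17.0 and 0.732 to 10.2 CPM. The part of stray fibroblast RNA in the type I and III values was not tested. Fewer UMIs of a gene can mean fewer cells with it or fewer molecules per cell, which the summed counts do not tell apart.

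Luminal values were also expressed as a percentage of the basal level of their library and set beside 4 reference genes that were high in basal cells. Acta2, Krt5 and Krt14, which defined basal cells and were kept low in the others by the class rule, stood in luminal progenitor cells at 0.934% to 6.03% of basal, and the matrix protein Sparc, which the rule did not use, at 0.889% to 2.69%. By library, the highest of these 4 reference genes was Krt14, at 1.36%, 6.03% and 3.15% in libraries 1, 2 and 3. Col14a1 (0.906%, 4.06% and 2.28%) and Col17a1 (0.886%, 3.58% and 1.60%) lay below that in each library. Col5a2 (1.31%, 3.99% and 3.37%) lay above it in library 3, and Col5a1 (1.76%, 4.08% and 3.33%) and Col7a1 (2.595%, 5.24% and 3.26%) in libraries 1 and 3. Col23a1 (7.85%, 4.23% and 3.45%, from 17 UMIs) did so in libraries 1 and 3 too. Col6a2 (0%, 11.9% and 3.51%) did so in libraries 2 and 3, and Col6a1 (0.520%, 9.32% and 3.04%) in library 2 only. Col12a1 (3.96%, 8.78% and 4.84%), Col9a2 (12.8% to 15.3%), Col16a1 (16.2% to 19.0%), Col9a3 (22.6% to 29.5%) and Col9a1 (152% to 283%) lay above every reference gene in each library. So did Col11a1 (138%, 15.0% and 24.95%) and Col1a2 (1.43%, 19.4% and 8.96%), the latter with 2 luminal progenitor UMIs in library 1. These are the collagens of at least 10 CPM in basal cells. The part of stray basal RNA in the luminal values, of collagens or of reference genes, was not tested. In hormone-responsive cells Col16a1, Col9a2, Col9a3 and Col9a1 stood at 2.99% to 5.23%, 2.499% to 3.71%, 2.54% to 4.08% and 3.38% to 13.2% of basal, where Acta2, Krt5 and Krt14 stood at 0.714% to 4.01%.

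**Figure D4:**
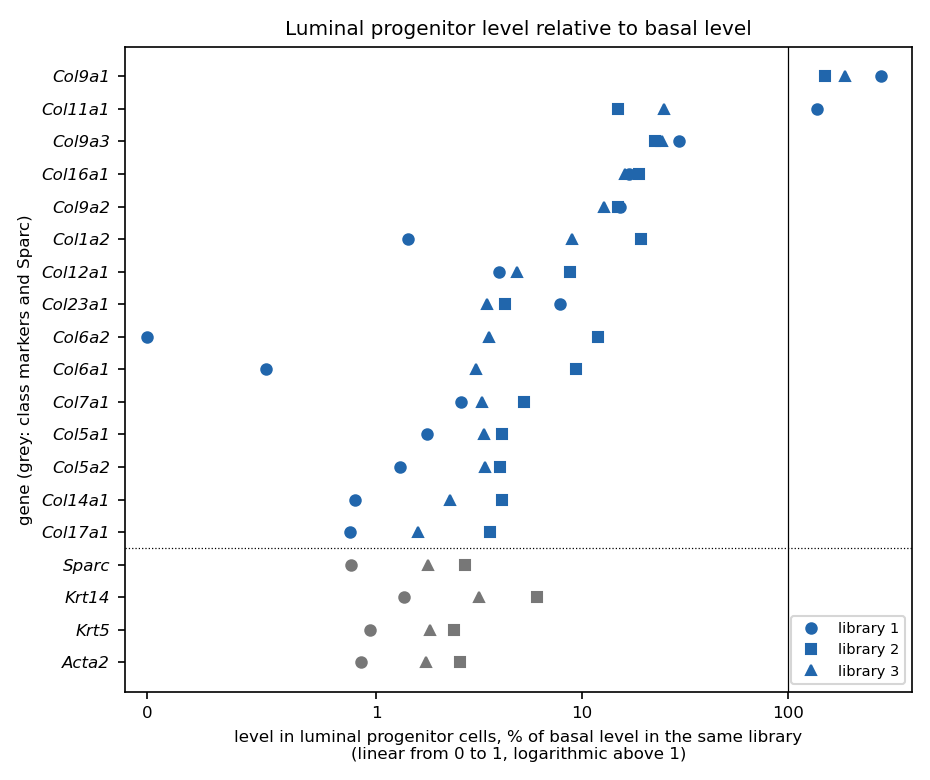
Level in luminal progenitor cells as a percentage of the basal level of the same library, for collagens of at least 10 CPM in basal cells (blue) and 4 reference genes (grey); the axis is linear from 0 to 1 and logarithmic above. Col17a1 and Col14a1 lie within the reach of the reference genes in each library. Col11a1, Col9a2, Col16a1, Col9a3 and Col9a1 lie to the right of the reference genes in all 3 libraries. Col12a1 and Col1a2 do so when each library is compared with itself.

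Basal cells were not uniform in their collagens. Basal cells with at least 3 summed UMIs of a marker trio were set beside the other basal cells of their library. The trios come from earlier clusters of these data, so the values are a description without a test. Log2 ratios were taken with 1 UMI added to each sum, which raises them where the cells with a trio hold few UMIs. Cells with Vcan, Igfbp2 and Ccnd2 (123, 827 and 253 cells) had Col11a1 at 152 ± 70.2 CPM against 53.1 ± 23.3 CPM in other basal cells, scaled by totals, a log2 ratio of 1.15 to 1.84 over the 3 libraries. In the same cells Col9a1 stood at 90.8 ± 47.4 against 37.6 ± 21.4 CPM (1.10 to 1.61), Col23a1 at 35.0 ± 17.4 against 11.5 ± 7.71 CPM (1.21 to 2.77) and Col7a1 at 376 ± 151 against 266 ± 107 CPM (0.30 to 0.65). Col9a2 (-0.17 to 0.13), Col16a1 (-0.08 to -0.03) and Col17a1 (-0.14 to 0.01) stayed near the other basal cells. These cells were deeper, with a median of 2678 to 3231 UMIs against 1679 to 2030 in other basal cells.

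Basal cells with Lgr5, Gfra2 and Dkk3 (114, 126 and 116 cells) showed another set. Col6a1 stood there at 102 ± 10.1 CPM against 33.8 ± 15.9 CPM (log2 ratio 1.23 to 2.47) and Col6a2 at 30.2 ± 1.73 against 16.3 ± 7.08 CPM (0.48 to 1.93, from 26 UMIs in all in these cells). Col5a2 stood at 94.6 ± 8.56 against 55.7 ± 8.19 CPM (0.71 to 0.91) and Col12a1 at 128 ± 6.96 against 85.6 ± 16.6 CPM (0.42 to 0.81). Col9a1 was lower, at 13.2 ± 10.4 against 47.5 ± 26.2 CPM (-1.92 to -1.26; 12 UMIs in all in these cells). Cells with this trio were 7.67%, 2.91% and 2.96% of basal cells in libraries 1, 2 and 3, and their part in the library 1 levels of these genes was not tested. Cells with Eln, Fmod and Mmp2 (254, 2023 and 1385 cells) had Col9a1 (0.41 to 1.66) and Col23a1 (0.48 to 1.37) above and Col6a1 (-0.86 to -0.33) below other basal cells in each library. Cells with Kctd4, Ackr4 and Osr1 were few (26, 43 and 19), and Col11a1 stood there at 141 ± 69.7 against 67.1 ± 31.0 CPM (38 UMIs).

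**Figure D5:**
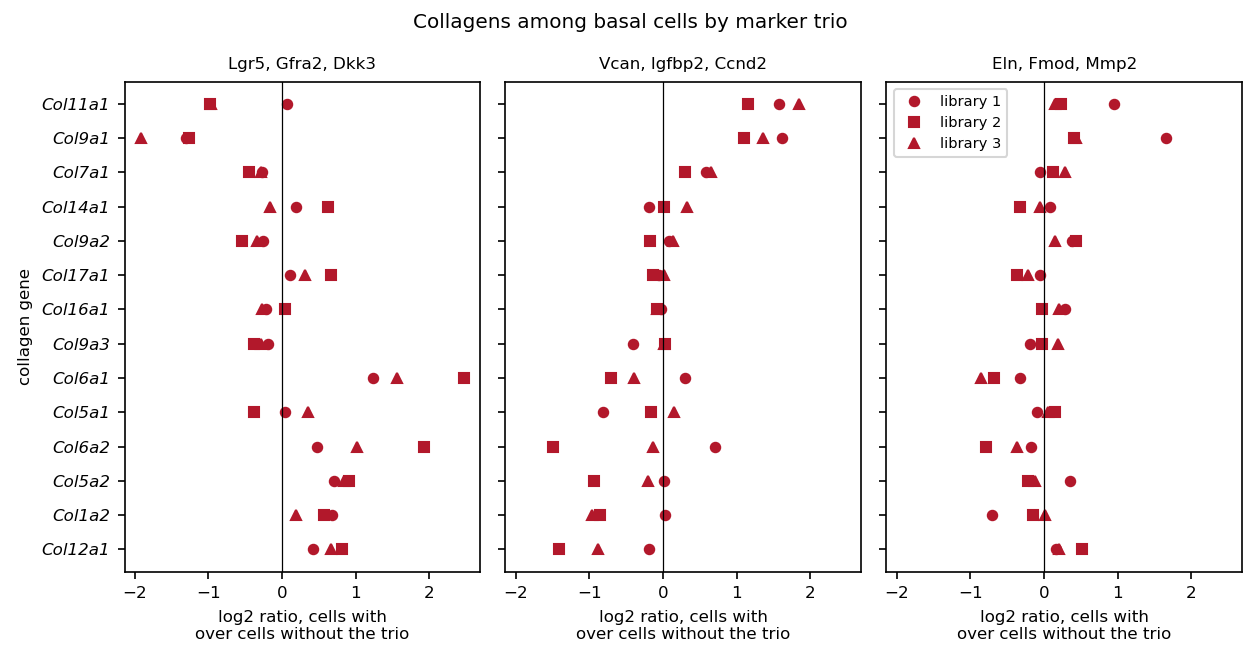
Log2 ratio of each collagen between basal cells with at least 3 UMIs of a marker trio and the other basal cells of the same library (1 UMI added to each sum); symbols are libraries, for genes of at least 10 CPM in basal cells with at least 10 UMIs in the cells with each trio. Col11a1 and Col9a1 lie to the right for Vcan, Igfbp2 and Ccnd2, and Col6a1, Col6a2, Col5a2 and Col12a1 lie to the right for Lgr5, Gfra2 and Dkk3.

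Libraries differed within a class. Of 15 collagens of at least 10 CPM in basal cells, library 1 was the lowest for 9 and the highest for 5, namely Col14a1, Col12a1, Col5a2, Col6a1 and Col6a2. Library 1 was also the lowest for 6 of 7 such genes in luminal progenitor cells, Col11a1 being the exception, and for 4 of 4 in hormone-responsive cells. The labels give no contrast between the libraries, and these differences were not tested. How often library 1 was lowest over all genes was not counted, so a trait of collagens cannot be read from them.

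The 9 collagens that did not pass the filter were Col2a1 (35 UMIs in the 3 classes), Col5a3 (23), Col13a1 (10), Col26a1 (9), Col6a6 (9), Col28a1 (4), Col19a1 (3), Col6a5 (3) and Col22a1 (1). Of the UMIs of Col2a1, the fibrillar chain of cartilage, 31 lay in basal cells. Col5a3 and Col13a1 had 152 and 39 UMIs in the 161 fibroblast-marker cells. None of the 9 was tested.

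Genes that build, process and bind collagens were taken from lists chosen with earlier results of these data known. Of 19 tested genes for hydroxylation and folding of the chains, 11 were higher in basal than in luminal progenitor cells and 0 lower, and 10 were higher and 1 lower than in hormone-responsive cells (medians 1.84 and 1.00), where 17.1% and 14.1% of all genes were called higher and lower in basal cells in the first comparison and 20.6% and 15.2% in the second. The lysyl hydroxylase Plod2 was the most different, at 22.3 ± 2.53 CPM in basal, 0.756 ± 0.200 CPM in luminal progenitor and 0.0878 ± 0.152 CPM in hormone-responsive cells (4.81 and 7.44), followed by Colgalt2, which adds galactose to hydroxylysine (4.21 and 4.96). The prolyl hydroxylase subunit P4ha1 was higher in basal than in luminal progenitor cells by 3.51, and the prolyl 3-hydroxylase P3h2 was higher in basal than in hormone-responsive cells by 4.19. The collagen chaperone Serpinh1 stood at 434 ± 85.4, 116 ± 11.1 and 26.3 ± 10.1 CPM, so luminal progenitor cells were above hormone-responsive cells (2.15, adjusted p = 1.4e-05). Another prolyl hydroxylase subunit, P4ha2, was highest in hormone-responsive cells, at 23.4 ± 8.23 CPM against 6.35 ± 2.87 CPM in basal and 1.91 ± 0.379 CPM in luminal progenitor cells (-1.93 and -3.57). Between the luminal classes, 4 of the 19 were higher in luminal progenitor cells (among them P3h2 by 3.70 and Plod2 by 2.63) and 3 in hormone-responsive cells, where P4ha2 and Plod1 (-3.05 ± 0.48) led, beside 14.1% and 10.4% of all genes. The third, P4ha1 (-1.17 ± 1.26, edgeR adjusted p = 0.0389), went the other way in library 1, with 6.41 CPM in luminal progenitor and 5.86 CPM in hormone-responsive cells. Its call was lost without the replicate block (adjusted p = 0.199) and when library 2 (-0.60, adjusted p = 0.287) or library 3 (adjusted p = 0.168) was left out. The call of Plod2 between the luminal classes (adjusted p = 0.0345) was lost with DESeq2 (0.0909), with a stricter class rule (0.0952) and when library 1, 2 or 3 was left out (0.0931, 0.0653 and 0.211).

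Of 6 tested genes for processing and cross-linking, 4 were higher in basal than in luminal progenitor cells and 1 lower, and 2 were higher than in hormone-responsive cells and 0 lower, beside 17.1%, 14.1%, 20.6% and 15.2% of all genes. The procollagen protease Adamts2 (4.79 and 4.76) and the lysyl oxidase Loxl3 (4.39 and 5.67) were higher in basal cells in both comparisons. The procollagen protease Bmp1 and its enhancer Pcolce were high in basal and hormone-responsive cells alike: Bmp1 stood at 79.4 ± 10.4 and 67.6 ± 4.94 CPM and Pcolce at 9.69 ± 2.45 and 11.8 ± 3.76 CPM, against 13.8 ± 0.538 and 1.03 ± 0.203 CPM in luminal progenitor cells. Adamts3 was higher in luminal progenitor cells (-1.33 as basal against luminal progenitor, and 1.501 against hormone-responsive cells; adjusted p = 0.00969 and 0.0171). Both calls were lost when library 2 (adjusted p = 0.102 and 0.134) or library 3 (0.0912 and 0.063) was left out, and the first with a stricter class rule (adjusted p = 0.0276, under the fold).

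Of 9 tested collagen receptors, 5 were higher and 1 lower in basal than in luminal progenitor cells, and 7 were higher and 0 lower than in hormone-responsive cells, beside 17.1%, 14.1%, 20.6% and 15.2% of all genes. Integrin alpha 1 (Itga1) was higher in basal cells by 5.31 and 6.73, and the collagen uptake receptor Mrc2 by 4.58 against luminal progenitor cells, though Mrc2 did not pass the filter without library 3 or with a stricter class rule. Ddr2, a receptor kinase for fibrillar collagen, stood at 5.32 ± 1.62 CPM in basal cells and had no UMI in hormone-responsive cells, a level at least 16.4-fold higher. Itga10 was higher in luminal progenitor cells than in both others (-1.87 and 3.09), and Cd44 was higher in basal and luminal progenitor cells than in hormone-responsive cells (3.79 and 3.13). Itga2 was higher in luminal progenitor cells than in hormone-responsive cells (1.41), and the type III collagen receptor Adgrg1 lower (-1.07). Without library 3, the calls of Itga10 against basal cells (adjusted p = 0.0595) and of Itga2 (0.96, adjusted p = 0.196) were lost, and without library 1 that of Adgrg1 (-0.88, under the fold). Some calls of basal over hormone-responsive cells were lost too. That of Itga2 was lost without the block (edgeR adjusted p = 0.0535) and without library 2 (0.0658) or 3 (0.202). Itgb1 fell under the fold without library 1 (0.97), without doublet removal (0.98) and with total-count scaling (0.92). Mrc2 was not called without library 2 (edgeR adjusted p = 0.0575).

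Of 12 tested matrix proteins that accompany fibrils, 10 were higher in basal cells in each comparison and 0 lower (medians 5.06 and 5.54), beside 17.1% and 20.6% of all genes higher. Sparc, a collagen-binding glycoprotein, stood at 2272 ± 621, 42.4 ± 24.5 and 40.6 ± 25.2 CPM, and biglycan (Bgn) at 287 ± 84.6, 5.002 ± 3.03 and 5.99 ± 3.45 CPM. Fibromodulin (Fmod) was higher by 5.59 against luminal progenitor cells, and Fbn2 and Postn by 6.14 and 5.77 against hormone-responsive cells. Between the luminal classes, 4 were higher in luminal progenitor cells, among them Tnc (3.79), Fbn2 (3.31) and Thbs1 (3.03), and 0 in hormone-responsive cells, beside 14.1% and 10.4% of all genes. The call of Tnc was lost without library 3 (adjusted p = 0.0599). The list held 21 genes, so these counts cover only a part of it. The fibril-binding Dcn, used here as a fibroblast marker, was not among the 12 and ran the other way. It had 240, 605 and 547 UMIs in hormone-responsive cells of libraries 1, 2 and 3. Luminal progenitor cells, which were more numerous, had 13, 55 and 89.

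Of 8 hemidesmosome genes, the partners of Col17a1, 7 were higher in basal than in luminal progenitor cells and 5 higher than in hormone-responsive cells, beside 17.1% and 20.6% of all genes. The laminin chain Lama3 (3.62 and 5.17) and Lamb3 (2.81 and 4.61) differed in both comparisons, as did the linker Dst (3.58 and 1.04) and the integrin chain Itga6 (2.43 and 2.62). Dst fell under the fold against hormone-responsive cells without library 1 (0.96) and with total-count scaling (0.94). Plec, higher in basal than in luminal progenitor cells by 1.01, fell under the fold without library 2 (0.97). The integrin chain Itgb4 was not called for basal against luminal progenitor (0.54), basal against hormone-responsive (0.45) or luminal progenitor against hormone-responsive cells (-0.09). Hormone-responsive cells were above luminal progenitor cells for Dst, at 323 ± 38.7 against 55.6 ± 5.61 CPM (-2.54), and for Plec (-1.25), and luminal progenitor cells above them for Lamb3 (1.80) and Lama3 (1.55).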

How the data were processed

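For each library the deposited file gives raw, unscaled UMI counts by gene symbol and barcode. The submitters' processing notes name Cell Ranger 2.1.0 and mm10; annotation and cell calling: not given in the sources used here. Libraries 1, 2 and 3 had 6691, 9034 and 11120 barcodes and 18584156, 27220670 and 30984706 UMIs. Barcodes with at least 500 genes and under 10% UMIs of 13 mitochondrial genes were kept (26320). The 1968 highest Scrublet scores (scanpy 1.11.5; 0.8% per 1000 barcodes) were removed as doublets, which left 24352.

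Class sums of raw counts in each library entered edgeR 4.0.16 under R 4.3.3 (two-sided quasi-likelihood test, TMM, filterByExpr, library as a block, all 9 sums in 1 fit). Sums of 1 library come from the same suspension: deviations from class means correlated at 0.263 to 0.516 within a library and at most at 0.109 between libraries. The deviations of a class cancel out over its libraries, so the low values between libraries follow in part from those within. Counts were also simulated for basal against luminal progenitor cells (12481 genes tested). Of genes changed by a log2 fold of 1, 92% were recovered, and of those changed by 2, 100%. Recovered meant an adjusted p under 0.05 in the right direction, whatever the fitted fold. The simulation gave all genes the same small spread, had no differences between libraries and changed only well-counted genes. It therefore does not show how often changes in rare collagens would be found. Every collagen that passed the filter is named with its values, the others with their UMI totals, and from each list up to 3 called genes with the largest difference per direction and comparison, beside a few others given with their values. A gene that this rule would name is not reported here. The members, lists and marker trios were chosen with earlier results of these data known. Alternatives were total-count scaling, DESeq2 1.42.0, no filter, no block, other cell filters and class rules, and each library left out. Gene positions are from GENCODE vM21 (GRCm38, the assembly of mm10).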

Additional observations from a re-analysis of the deposited data

How the results depend on the processing

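Of 78 fold changes of single collagens, 64 kept their direction and their side of the threshold under each of the 11 alternatives that gave a value, and 0 reversed. Of the 19 collagens higher in basal than in luminal progenitor cells, 15 kept the call under every alternative that gave a value, and of the 19 higher than in hormone-responsive cells, 18. The first count ranged from 15 to 20 and the second from 18 to 22 over the alternatives; without the replicate block they were 17 and 18, and with DESeq2 19 and 21. Leaving out 1 library gave 0 to 1 collagens higher in luminal progenitor than in basal cells and 2 to 4 higher in hormone-responsive than in basal cells. With 1 library left out, genes higher in luminal progenitor than in basal cells numbered 0 to 1 for processing and cross-linking, 0 to 1 for receptors and 0 to 2 for fibril-associated proteins. Between the luminal classes they numbered 0 to 1 for processing (higher in luminal progenitor cells), 0 to 1 for receptors and 2 to 6 for hydroxylation (higher in hormone-responsive cells). A stricter class rule (at least 10 UMIs and 5 times the others) gave 0 processing genes higher in luminal progenitor than in basal cells, no filter on low counts gave 2 fibril-associated proteins, and total-count scaling gave 6 hydroxylation genes higher in hormone-responsive than in luminal progenitor cells. Thinning lowered the share of cells with a collagen UMI to 52.4% in luminal progenitor and 62.1% in hormone-responsive cells. The cause of these shifts was not tested. Keeping the cells with non-epithelial markers left the collagen share of UMIs at 0.276%, 0.0412% and 0.0641%. Col20a1 had 53 UMIs in the 3 classes, Col15a1 61, Col11a2 121 and Col8a2 145, and depth limits what their comparisons can show.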

Other observations

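Cells outside the 3 classes also held collagen UMIs. The 70 cells with endothelial markers held 19 UMIs of Col15a1, a collagen of vessel basement membranes, or 132 CPM scaled by totals, against 569 in fibroblast-marker cells and 1.74 in cells without a class. The 13 cells with pericyte markers held 27 UMIs of Col3a1, 20 of Col1a2 and 15 of Col6a2. In fibroblast-marker cells Col14a1 stood at 440 CPM scaled by totals, Col17a1 at 16.8 and Col8a1 at 11.2. The 3895 cells without a class held 1683 UMIs of Col16a1, 881 of Col9a2 and 389 of Col8a1. These cells are few or mixed and were not compared with the classes by a test.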
